A study of Mus musculus with 9 samples.

Results

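The 10 genes described here encode integrin subunits, and they were taken by symbol from the gene list of the series, 10 of 54534 entries: 7 α subunits (*Itga1*, *Itga5*, *Itga6*, *Itga8*, *Itga10*, *Itga11* and *Itgav*) and 3 β subunits (*Itgb1*, *Itgb3* and *Itgb5*). Each symbol matched 1 entry. Integrins are cell surface receptors made of 1 α and 1 β subunit that bind extracellular matrix outside the cell and, through talin and kindlin, the actin cytoskeleton inside it. The β1 chain pairs with the collagen-binding α1, α10 and α11, with the laminin-binding α6 and with α5 and α8, which recognise fibronectin and nephronectin, whereas αv also pairs with β3 and β5 to bind vitronectin, osteopontin and related proteins. The α10 chain is known as a receptor of chondrocytes and α11 as a receptor of fibroblasts for fibrillar collagen.

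Single-cell RNA sequencing was made of cells from knees of *Gdf5-Cre;Tom;Pdgfrα-H2BGFP* mice, aged 11 to 12 weeks. Cre under *Gdf5* regulatory sequence turns on tdTomato (Tom) in descendants of the embryonic joint interzone, and the *Pdgfrα* promoter drives a nuclear green fluorescent protein (GFP); all groups carry both. Sorting gave Tom+ cells and Tom-GFP+ cells, from mice at steady state (2 Tom+ libraries, 1 Tom-GFP+ library) or 6 days after surgery that opened the joint and scratched the groove cartilage of the right knee (4 Tom+ and 2 Tom-GFP+ libraries). Within a lineage each library is 1 mouse, but the Tom-GFP+ cells came from mice that also gave a Tom+ library, and which ones is not given in the labels; libraries are treated as separate throughout. The authors give an age of 11 weeks for the steady-state mice and 12 weeks for the injured mice, so age moved with injury. Since the sort kept Tom+ or GFP+ cells, classes that carry neither are thinly represented.

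The libraries held 2866464 to 15033902 unique molecular identifiers (UMIs), and 277 to 826 cells each passed the filter, 4788 in all. Median depth per cell was 8050.5 to 8647 UMIs at steady state and 12223 to 18567 after injury. All 3 steady-state libraries and 1 injured library (Tom+ injured replicate 1, the deepest) came with an older form of gene list, and the other 5 injured libraries with a newer one. At most 2 cell barcodes were shared by any pair of libraries.

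Cells were put in classes by marker genes, none of them an integrin: 789 fibroblast-like synoviocytes of the lining (FLS; *Prg4*, *Clic5*, *Tspan15*, *Htra4*, *Col22a1*, *Hbegf*), 2564 *Thy1*+ fibroblasts, of which 426 carried F4 markers (*Dpp4*, *Pi16*, *Cd248* and others) and 684 were *Lrrc15*+, and 203 tenocyte-lineage, 161 osteoblast-lineage, 122 chondrocyte-lineage and 96 mural cells. The *Thy1*+ class needed 4 of 6 listed markers and a UMI of *Thy1* or *Cd34*. Cells that met the *Lrrc15*+ gate were not counted as F4, so the other *Thy1*+ fibroblasts set against F4 include them. *Thy1* itself had UMIs in 78.6% of its cells and *Cd34* in 93.1%. A further 299 cells had *Prg4* and related genes without *Thy1* and with at most 1 of *Clic5*, *Tspan15* and *Htra4*. They are called *Prg4*+ *Thy1*- cells and not lining cells, because *Cd34*, a sublining marker, had UMIs in 61.9% of them against 26.0% of FLS. *Clic5* UMIs were found in 86.7% of FLS and 1.01% of *Thy1*+ fibroblasts, *Col2a1* in 84.4% of chondrocyte-lineage cells, *Sp7* in 66.5% of osteoblast-lineage cells, *Tnmd* in 58.6% of tenocyte-lineage cells and *Myh11* in 76.0% of mural cells. *Prg4* was less specific, with UMIs in 64.5% of *Thy1*+ fibroblasts, 83.7% of tenocyte-lineage, 68.0% of chondrocyte-lineage, 47.8% of osteoblast-lineage and 29.2% of mural cells. The source of these *Prg4* UMIs was not tested. The immune gene *Ptprc*, found in 66.7% of cells gated as immune, had no UMI in these classes apart from 0.985% of tenocyte-lineage cells. *Tyrobp*, found in 97.1% of immune-gated cells, had UMIs in 0.312% of *Thy1*+ fibroblasts, 0.887% of FLS and 1.00% of *Prg4*+ *Thy1*- cells. It was in 0.985% of tenocyte-lineage and 2.08% of mural cells and in no osteoblast- or chondrocyte-lineage cell. *Rgs5*, with UMIs in 84.4% of mural cells, also had them in 49.2% of FLS. Sums of UMIs over the cells of a class in 1 library, where it held at least 10 cells, are the values below; they are given as CPM, the UMIs of a gene per 1e6 UMIs of that sum, and n counts libraries.

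Among the members, the largest excesses of a class over *Thy1*+ fibroblasts were in α subunits. *Itga6* marked FLS, *Itga10* the skeletal classes and *Itga1* the mural cells, whereas *Itgav*, *Itgb1* and *Itgb5* were found in every stromal class at levels that mostly stayed within a few-fold of each other.

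**Figure D1:**
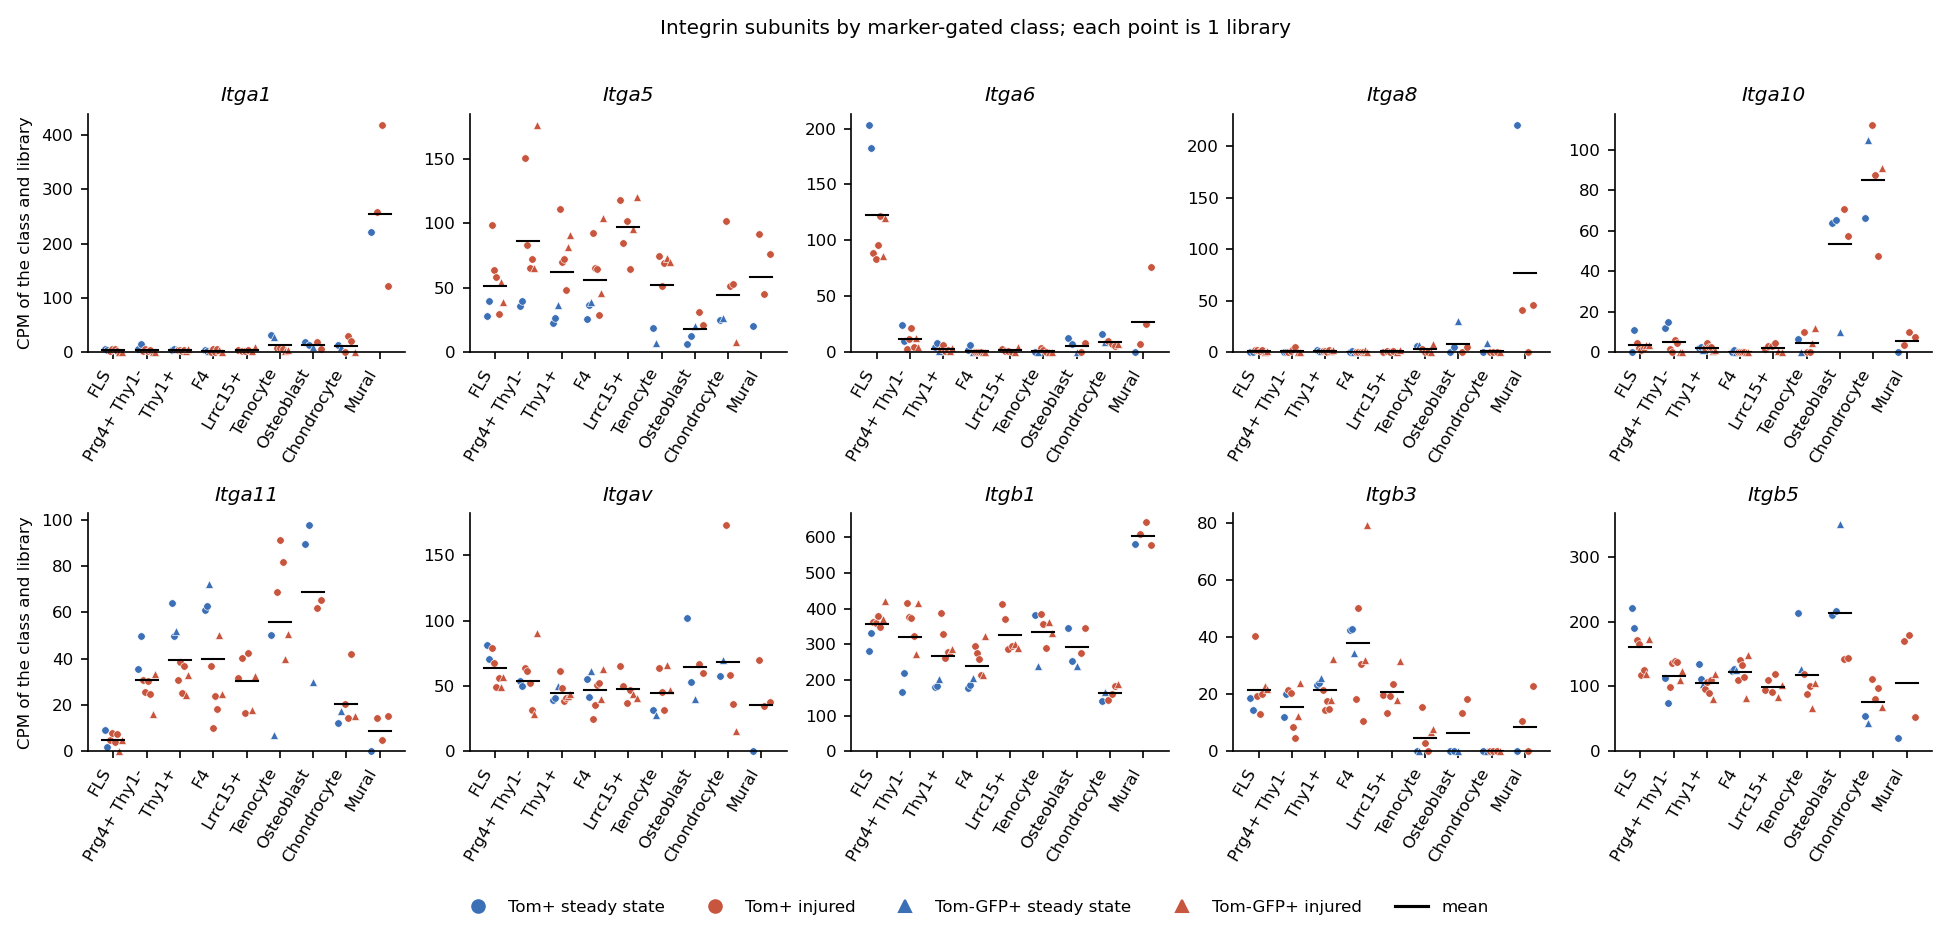
CPM of each integrin subunit (y axis, linear, a separate scale per gene) in 9 marker-gated classes (x axis). Each point is 1 library with at least 10 cells of the class, coloured by injury state and shaped by lineage, and black lines are means. *Itga6* points stand at 83.3 to 203 in FLS, *Itga10* at 47.5 to 112 in chondrocyte-lineage cells and *Itga1* at 122 to 418 in mural cells, while the lowest *Itgb1* value is 141.

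*Itga6* (ENSMUSG00000027111; GRCm38 chromosome 2, 71745616 to 71858416, plus strand) encodes the laminin-binding α6 chain. Its level in FLS was 203 and 182 CPM in the 2 Tom+ steady-state libraries, 88.2, 83.3, 95.6 and 121 CPM in the 4 Tom+ injured libraries, and 85.6 and 120 CPM in the 2 Tom-GFP+ injured libraries, which held only 29 and 39 FLS. In *Thy1*+ fibroblasts of the same 8 libraries it was 3.47 ± 2.53 CPM (SD, n = 8). The classes did not overlap, and the difference of 5.03 ± 0.24 (SE) on the log2 scale passed the test (edgeR quasi-likelihood test with the library as a block, Benjamini-Hochberg adjusted p = 3.67e-09) and all 19 alternatives. UMIs of *Itga6* were detected in 67.8% of FLS at a median depth of 17437 UMIs and in 3.08% of *Thy1*+ fibroblasts at 11037.5 UMIs. After thinning every cell to 5000 UMIs, with 10 FLS and 209 *Thy1*+ fibroblasts too shallow, the shares were 36.7% and 1.61%. F4 fibroblasts had 0.939% before and 0.488% after thinning, at a median of 9785 UMIs.

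Among the other classes *Itga6* was 11.4 ± 7.79 CPM in *Prg4*+ *Thy1*- cells (n = 8), above the *Thy1*+ fibroblasts of the same library in 8 of 8 libraries, but it was too low there for the filter and was not tested. It was 9.33 ± 3.85 CPM in chondrocyte-lineage cells (n = 6), which was 1.95 ± 0.61 higher on the log2 scale than in *Thy1*+ fibroblasts (edgeR adjusted p = 0.0349), on 10 UMIs in all, and the call was lost under 10 of 12 alternatives, among them without any 1 library other than Tom+ steady-state replicate 2 (adjusted p = 0.0672 to 0.0750), and without that one the gene did not pass the filter. In mural cells the value in injured Tom+ replicate 4, at 76.1 CPM, stood beside 7.19 and 24.9 CPM in injured replicates 1 and 2 and no UMI among 49870 in steady-state replicate 2, where up to 60.2 CPM cannot be told from 0. The mural difference of 2.32 ± 0.72 (edgeR adjusted p = 0.0418) was lost in 6 of 14 alternatives, with 2.52 (adjusted p = 0.0695) without injured replicate 2 and 1.23 (adjusted p = 0.332) without injured replicate 4. Endothelial *Pecam1*, in 5.21% of mural cells, is a marker of cells that also use α6, and its part in the mural value was not tested.

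*Itga10* (ENSMUSG00000090210; chromosome 3, 96645584 to 96664519, plus strand) encodes the α10 chain, a receptor for collagen type II. Chondrocyte-lineage cells had 66.2 CPM (Tom+) and 105 CPM (Tom-GFP+) at steady state, 112, 87.7 and 47.5 CPM in Tom+ injured replicates 1, 3 and 4, and 91.2 CPM in Tom-GFP+ injured replicate 1. Osteoblast-lineage cells had 63.9 and 65.3 CPM in steady-state Tom+ libraries, 70.9 and 57.6 CPM in Tom+ injured replicates 1 and 2, and 10.0 CPM (1 UMI) in the Tom-GFP+ steady-state library. *Thy1*+ fibroblasts stayed at 2.16 ± 1.11 CPM (n = 9), so neither skeletal class overlapped with them.

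The difference was 5.42 ± 0.39 (SE; adjusted p = 7.31e-08, edgeR) for chondrocyte-lineage and 4.44 ± 0.34 (adjusted p = 3.64e-06) for osteoblast-lineage cells, and both held under every alternative run. The 2 classes were not tested against each other; their values, 85.0 ± 24.3 CPM (n = 6) and 53.5 ± 24.8 CPM (n = 5), overlap. *Sp7*, a gene of osteoblasts, had UMIs in 20.5% of chondrocyte-lineage cells, and *Col2a1* in 9.32% of osteoblast-lineage cells, so some cells of either class carry markers of the other. In the remaining stromal classes *Itga10* was low, with means from 0.132 ± 0.395 CPM in F4 fibroblasts to 5.29 ± 4.40 CPM in mural cells. Single libraries reached 15.0 CPM in *Prg4*+ *Thy1*- cells, 11.7 CPM in tenocyte-lineage cells and 10.8 CPM in FLS. Those values came from groups with 5, 5 and 6 UMIs in all. The 15 UMIs of Tom+ injured tenocyte-lineage cells were all in 1 library, at 10.0 CPM.

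*Itga11* (ENSMUSG00000032243; chromosome 9, 62677826 to 62783982, plus strand) encodes the α11 chain, which binds fibrillar collagen. Its mean level was highest in osteoblast-lineage cells (69.0 ± 26.6 CPM, n = 5), tenocyte-lineage cells (55.7 ± 28.3 CPM, n = 7) and F4 fibroblasts (39.99 ± 22.3 CPM, n = 9), neighbours that do not differ beyond their spread. *Thy1*+ fibroblasts as a whole had 39.4 ± 13.4 CPM (n = 9), and FLS stood lowest at 5.01 ± 3.13 CPM (n = 8). In the individual FLS libraries the level ran from 0 to 9.37 CPM, below the lowest *Thy1*+ fibroblast value of 24.5 CPM. The FLS difference of -2.79 ± 0.19 (edgeR adjusted p = 9.83e-08) held under all 19 alternatives. Mural cells were lower as well, at 8.65 ± 7.40 CPM (n = 4) and a difference of -1.92 ± 0.45 (adjusted p = 0.00793), lost only without injured replicate 2 (adjusted p = 0.0528).

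In tenocyte-lineage cells *Itga11* was 0.76 ± 0.24 higher (log2) than in *Thy1*+ fibroblasts but missed the threshold (edgeR adjusted p = 0.0900), and that outcome turned on 1 library. Its values were 68.9, 91.5 and 81.8 CPM in Tom+ injured replicates 1, 2 and 4, 50.1 CPM in Tom+ steady-state replicate 2, and 39.7 and 50.7 CPM in the Tom-GFP+ injured libraries, against 7.01 CPM (1 UMI) in the Tom-GFP+ steady-state library. All except the last were above the *Thy1*+ fibroblasts of the same library. Tom+ steady-state replicate 2 was so only just, at 50.1 CPM (8 UMIs) against 49.6 CPM. A clear excess was thus seen in injured libraries only, where the *Thy1*+ fibroblasts were at 24.5 to 38.7 CPM against 49.6 and 52.2 CPM in these steady-state libraries. Without the Tom-GFP+ steady-state library the difference was 0.96 (edgeR adjusted p = 0.00370). In osteoblast-lineage cells the difference of 0.61 ± 0.24 did not pass either (adjusted p = 0.157), and there too leaving out the Tom-GFP+ steady-state library brought it past the threshold (adjusted p = 0.0426).

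*Itga1* (ENSMUSG00000042284; chromosome 13, 114953096 to 115101964, minus strand) encodes the α1 chain, a receptor for collagen type IV that smooth muscle is known to carry. In mural cells it stood at 221 CPM in Tom+ steady-state replicate 2 and at 259, 418 and 122 CPM in Tom+ injured replicates 1, 2 and 4. *Thy1*+ fibroblasts of the same 4 libraries were at 4.01 ± 1.30 CPM, and the difference of 5.67 ± 0.36 (log2; edgeR adjusted p = 7.29e-08) held under all 14 alternatives. UMIs were seen in 65.1% of mural cells thinned to 5000 UMIs. The means of the other stromal classes lay between 2.46 CPM in F4 fibroblasts and 12.9 CPM in osteoblast-lineage cells, and in tenocyte-lineage cells the difference of 1.16 ± 0.39 missed the threshold (adjusted p = 0.121).

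*Itga8* (ENSMUSG00000026768; chromosome 2, 12106632 to 12301922, minus strand), whose α8 product binds nephronectin, passed the filter on low counts in none of the 14 comparisons and was not tested. Its mean level was highest in mural cells (40 UMIs in all, against 33 in the far more numerous *Thy1*+ fibroblasts and 19 in FLS), and uneven there: 11 UMIs in the 10 mural cells of steady-state replicate 2 (221 CPM, exact 95% Poisson interval 110 to 395), 23 UMIs in injured replicate 1 (41.4 CPM, 26.2 to 62.1), 6 UMIs in injured replicate 4 (45.6 CPM, 16.8 to 99.4), and none in injured replicate 2, where 3 counts correspond to 14.9 CPM. These intervals cover counting error only. Mean levels in the other stromal classes were between 0.354 and 8.06 CPM.

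*Itga5* (ENSMUSG00000000555; chromosome 15, 103344286 to 103366763, minus strand) encodes the α5 chain of the main fibronectin receptor. Osteoblast-lineage cells had 6.39, 12.6 and 20.03 CPM in the steady-state libraries and 31.0 and 21.0 CPM in Tom+ injured replicates 1 and 2, in each case below the *Thy1*+ fibroblasts of the same library. That difference was -1.55 ± 0.26 (edgeR adjusted p = 0.00181; 5 of 5 libraries); it kept its direction in all 16 alternatives and lost the call in 3. FLS were lower by -0.47 ± 0.14 (adjusted p = 0.0182; 6 of 8 libraries), but within the steady-state libraries alone the value was 0.26, with the opposite sign and without a call. It was not called either within Tom+ libraries (-0.32, adjusted p = 0.113) or without Tom+ injured replicate 4 (-0.43, adjusted p = 0.0514). *Lrrc15*+ fibroblasts of the 6 injured libraries had 97.3 ± 21.0 CPM against 63.3 ± 18.2 CPM in the other *Thy1*+ fibroblasts of the same libraries, a difference of 0.61 ± 0.08 (adjusted p = 0.000929) seen in 6 of 6 libraries. When 1 more marker was asked of every class the value was -0.0070. When classes were set on thinned cells it was 0.52 and just missed the threshold (edgeR adjusted p = 0.0550). *Lrrc15*+ cells held more UMIs per cell than the others in each injured library, and the part of depth was not tested. In Tom+ injured replicate 1, 232 *Lrrc15*+ cells held 5778471 UMIs and 123 others 2093027.

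*Itgav* (ENSMUSG00000027087; chromosome 2, 83724397 to 83806916, plus strand) encodes the αv chain. Mean levels in the stromal classes lay between 35.8 ± 28.7 CPM in mural and 68.6 ± 54.9 CPM in chondrocyte-lineage cells, an order in which no neighbours differ beyond their spread. FLS had 63.7 ± 12.7 CPM against 44.3 ± 7.64 CPM in *Thy1*+ fibroblasts, higher in 8 of 8 libraries by 0.36 ± 0.09 on the log2 scale (edgeR adjusted p = 0.00622). The call was lost without the filter on low counts (0.28, adjusted p = 0.110) and within the steady-state libraries (0.68, adjusted p = 0.0629). None of the other 7 class comparisons passed the threshold for *Itgav*.

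*Itgb1* (ENSMUSG00000025809; chromosome 8, 128685654 to 128733200, plus strand) encodes the β1 chain, the partner of most α chains named here. Mural cells had 582 CPM in steady-state replicate 2 and 608, 642 and 578 CPM in injured replicates 1, 2 and 4, all above the 295 ± 86.7 CPM of *Thy1*+ fibroblasts. After scaling of the libraries the difference was 0.69 ± 0.24 and missed the threshold (edgeR adjusted p = 0.0721), with DESeq2 (adjusted p = 0.0427) and 2 other gatings on the other side of it. Fold changes here are scaled by the trimmed mean of M values, so they need not equal a ratio of CPM. The median of all genes tested was -0.14 in the mural and -0.13 in the chondrocyte comparison, against which these values are to be read. Chondrocyte-lineage cells had the lowest *Itgb1*, 141 to 190 CPM in 6 libraries, lower than *Thy1*+ fibroblasts in 6 of 6 by -0.68 ± 0.21 (adjusted p = 0.0309), a call lost under 11 of 17 alternatives, among them without any 1 library other than Tom+ steady-state replicate 2 (adjusted p = 0.0520 to 0.0906). The higher level in FLS, 0.27 ± 0.09 (adjusted p = 0.0377; 7 of 8 libraries), was likewise lost under 11 of 19, among them without any 1 library other than Tom+ injured replicates 1 and 2 (adjusted p = 0.0685 to 0.0915).

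*Itgb3* (ENSMUSG00000020689; chromosome 11, 104608000 to 104670476, plus strand) encodes the β3 chain. F4 fibroblasts had 42.6, 42.7 and 34.3 CPM in the 3 steady-state libraries, 18.5, 50.3, 30.6 and 10.47 CPM in the Tom+ injured and 32.1 and 79.4 CPM in the Tom-GFP+ injured libraries. The other *Thy1*+ fibroblasts were at 17.4 ± 3.59 CPM, and F4 cells were higher in 7 of 9 libraries, the exceptions being Tom+ injured replicates 1 and 4, where they held 3 and 4 UMIs. The difference of 1.08 ± 0.21 (edgeR adjusted p = 0.00125) held under all 20 alternatives. Chondrocyte-lineage cells held no *Itgb3* UMI among all 6 libraries, and against a floor of 3 counts over the group the level was at least 7.26-fold lower than in *Thy1*+ fibroblasts (adjusted p = 0.00222). Tenocyte-lineage cells had none in 3 of 7 libraries and at most 15.4 CPM in the rest, below *Thy1*+ fibroblasts in 7 of 7; that call (-1.39 ± 0.35, adjusted p = 0.0287) was lost under 12 of 18 alternatives, among them without Tom+ steady-state replicate 2, Tom+ injured replicate 2 or any 1 of the Tom-GFP+ libraries (adjusted p = 0.0568 to 0.0835).

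*Itgb5* (ENSMUSG00000022817; chromosome 16, 33829665 to 33949338, plus strand) encodes the β5 chain, which pairs with αv. Osteoblast-lineage cells had 211, 216 and 351 CPM in the steady-state and 142 and 144 CPM in the injured libraries, all above the highest *Thy1*+ fibroblast value. The difference was 0.81 ± 0.19 (edgeR adjusted p = 0.0173), and it was lost under 8 of 16 alternatives, among them without the Tom-GFP+ steady-state library (0.61, adjusted p = 0.0544) or Tom+ steady-state replicate 2 (0.78, adjusted p = 0.0913). FLS were higher than *Thy1*+ fibroblasts in 8 of 8 libraries by 0.44 ± 0.08 (adjusted p = 0.000883), under all 19 alternatives.

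**Figure D2:**
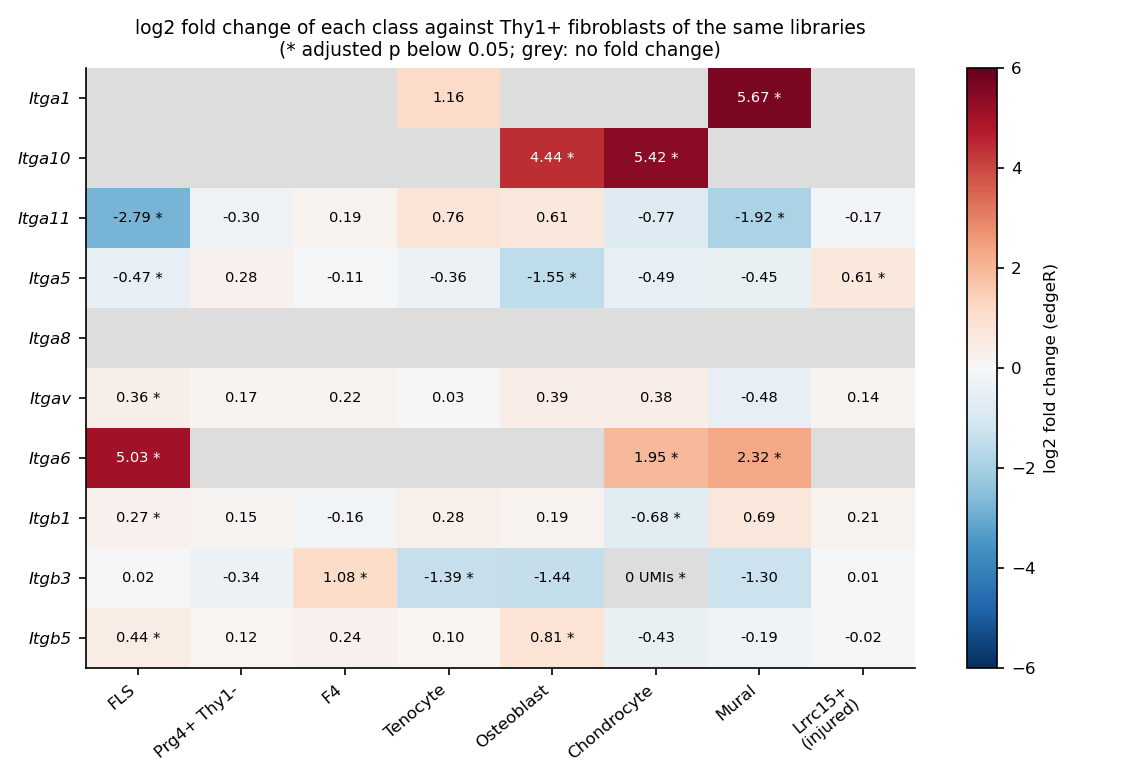
Log2 fold changes (numbers and colour) of the 10 subunits (rows) in each class against *Thy1*+ fibroblasts of the same libraries (columns), with an asterisk where the edgeR adjusted p is below 0.05 and grey where no fold change is given. FLS stand out by *Itga6* (5.03) and *Itga11* (-2.79), the chondrocyte- and osteoblast-lineage cells by *Itga10* (5.42 and 4.44), and mural cells by *Itga1* (5.67).

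Counted over the members, 4 of 7 tested in FLS were higher and 2 lower, where 18.6% and 18.8% of all genes tested were called. In osteoblast-lineage cells 2 of 7 were higher and 1 lower (4.88% and 5.59% of all genes), in chondrocyte-lineage cells 2 of 8 higher and 2 lower (7.65% and 11.0%), and in mural cells 2 of 8 higher and 1 lower (6.27% and 8.59%). F4 fibroblasts had 1 of 6 higher and 0 lower (8.27% and 8.37%), tenocyte-lineage cells 0 of 7 higher and 1 lower (1.88% and 3.02%) and *Lrrc15*+ fibroblasts 1 of 6 higher and 0 lower (6.63% and 6.68%), by edgeR. In *Prg4*+ *Thy1*- cells against *Thy1*+ fibroblasts none of the 6 members tested passed the threshold, with 1.46% of all genes higher and 2.80% lower by edgeR. No member had an unadjusted p under 0.05 there, where 1326 of 8974 genes did. A member that is low in most classes passes the filter only where a class is rich in it, so these counts over tested members are a description.

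The genes whose levels ran most alike with a member over 62 sums of a class in a library were found by Pearson correlation of log2(CPM + 1) among 8033 genes (8034 for *Itga8*); the sums share libraries and depth. They were *Clic5* (r = 0.78), *Sox5* (0.77) and *Tmem196* (0.76) for *Itga6*, and *Eps8l2* (0.86), *Fgfr3* (0.84) and *Alpl* (0.84) for *Itga10*. For *Itga1* they were *Mylk* (0.79), *Ppp1r14a* (0.74) and *Gucy1a1* (0.74), and for *Itga11* *Itm2a* (0.76), *Tmem119* (0.74) and *Lum* (0.73). *Itgb3* ran with *Adgrd1* (0.82), *Osr1* (0.80) and *Ly6a* (0.78), and *Itgb1* with *Flna* (0.83), *Myl6* (0.80) and *Cox8a* (0.80). *Clic5*, *Alpl* and *Ly6a* are gate markers, as is *Notch3* below. The first neighbours of the others were *Eif6* for *Itga5* (0.70), *Notch3* for *Itga8* (0.64), *Tug1* for *Itgav* (0.80) and *Tgfbr1* for *Itgb5* (0.71). Among the members themselves the highest correlations were 0.54 for *Itga1* with *Itga8* and 0.51 both for *Itgav* with *Itgb5* and for *Itga5* with *Itgb3*, and the lowest was -0.55 for *Itga10* with *Itgb3*.

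The next comparison asked how injury changed the subunits within a class. In Tom+ *Thy1*+ fibroblasts *Itga5* and *Itgb1*, which together form the fibronectin receptor α5β1, rose after injury, and *Itga11* fell. *Itga5* was 22.5 and 26.7 CPM at steady state and 111, 69.7, 72.1 and 48.4 CPM after injury. *Itgb1* was 180 and 184 CPM before and 389, 329, 263 and 279 CPM after it. *Itga11* was 64.0 and 49.6 CPM before and 30.6, 38.7, 25.1 and 36.9 CPM after it.

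For none of the 3 genes did the groups overlap. The share of all genes whose groups did not overlap is not given, so here and in the injury groups below this is a description only. The log2 differences were 1.58 ± 0.32 for *Itga5* (edgeR adjusted p = 0.0166), 0.76 ± 0.20 for *Itgb1* (adjusted p = 0.0361) and -0.82 ± 0.23 for *Itga11* (adjusted p = 0.0465). Of all 12497 genes tested 5.05% were called higher and 7.59% lower, and of the 9 members tested 2 and 1. With only 2 steady-state mice, leaving out either of them left no member called (adjusted p of *Itga5* up to 0.137), while all 3 directions stayed. *Itgb1* also lost its call without Tom+ injured replicate 2 or 3, (adjusted p = 0.0757 and 0.0514), and *Itga11* under 9 of 20 alternatives, among them without Tom+ injured replicate 1, 2 or 3 (0.0536, 0.0672 and 0.0918).

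**Figure D3:**
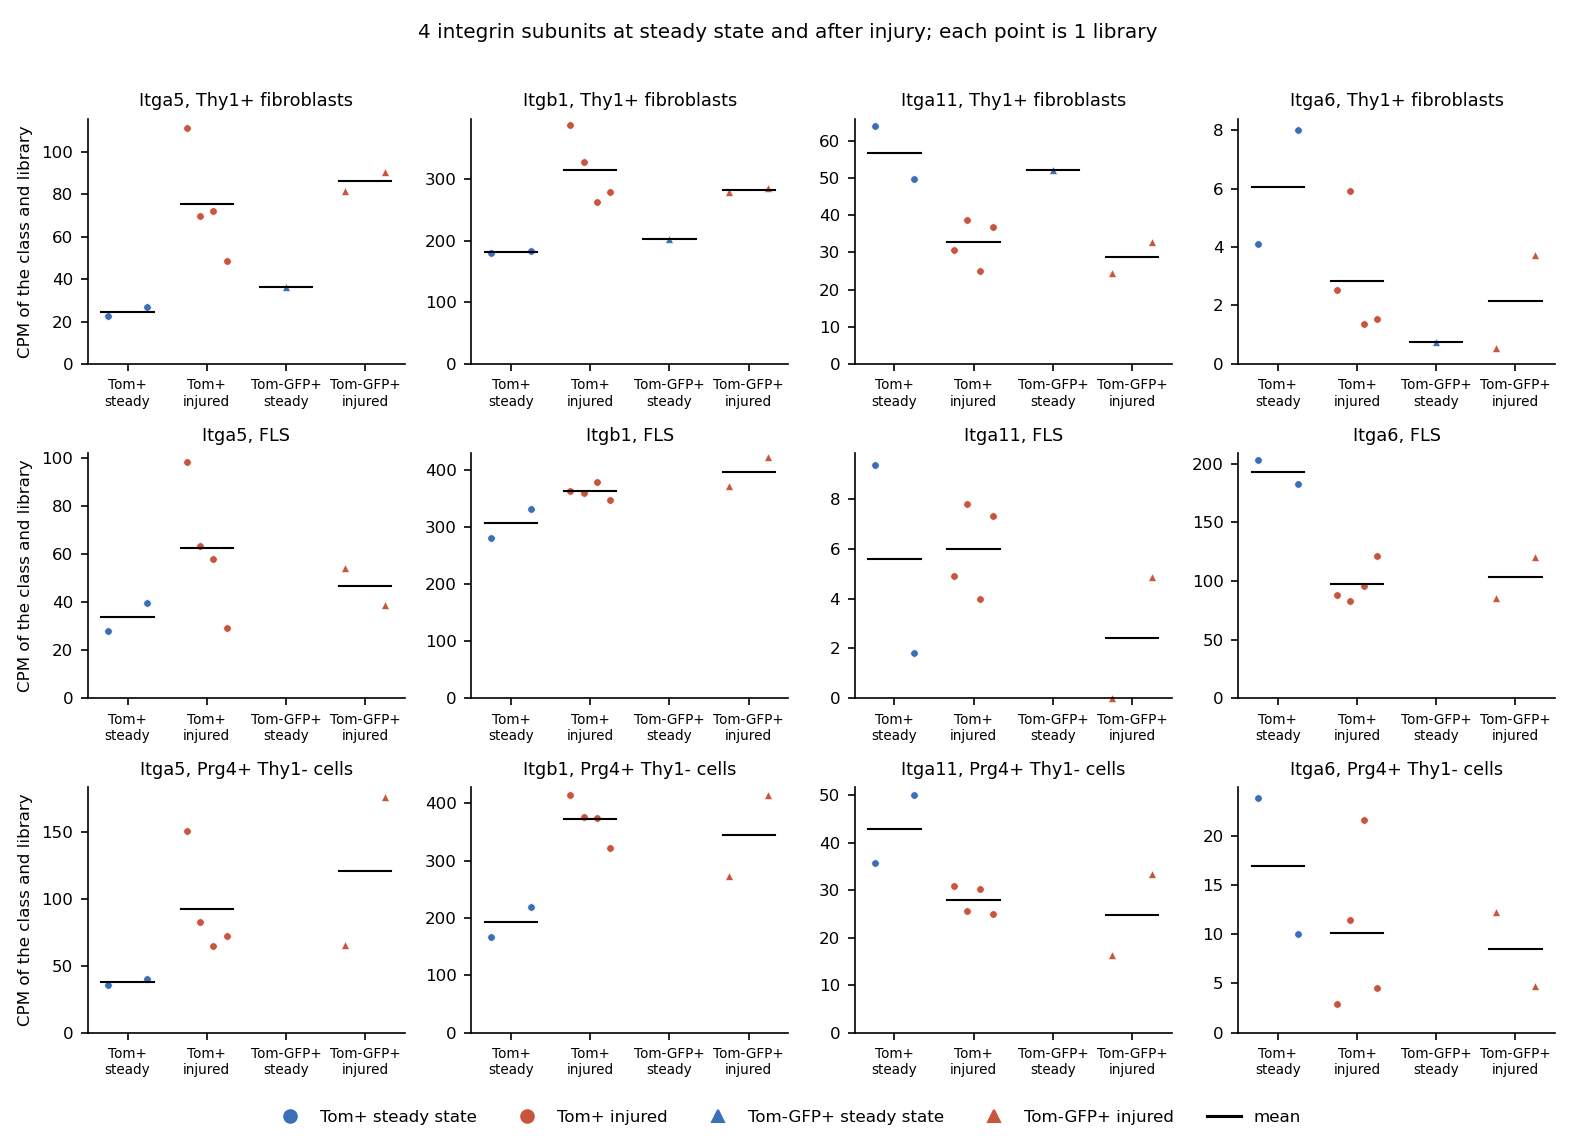
CPM of *Itga5*, *Itgb1*, *Itga11* and *Itga6* (columns, y axes from 0) in *Thy1*+ fibroblasts, FLS and *Prg4*+ *Thy1*- cells (rows), by lineage and injury state (x axis). Each point is 1 library and each line a group mean; a group with fewer than 10 cells is left out. *Itga5* in *Thy1*+ fibroblasts is 22.5 to 36.4 in the steady-state libraries and 48.4 to 111 in the injured ones, and *Itga6* in FLS is 182 and 203 before and 83.3 to 121 after injury.

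*Lrrc15*+ cells made up 0% to 0.441% of *Thy1*+ fibroblasts at steady state and 27.4% to 65.4% after injury, and F4 cells 26.0% to 35.6% and 3.38% to 17.1%. Without the *Lrrc15*+ cells, an alternative chosen after their shares were seen, the changes were 1.30 for *Itga5* (edgeR adjusted p = 0.0248), 0.64 for *Itgb1* (0.0475) and -0.81 for *Itga11* (0.0254). Depth per cell and the form of the gene list moved with injury as well, as did age, whose part was not tested. With the form of the gene list as a block the values were 2.12 for *Itga5* (edgeR adjusted p = 0.00152), 1.05 for *Itgb1* (0.0146) and -0.93 for *Itga11* (0.0805). That fit rests on 1 injured library, Tom+ injured replicate 1, the only one with the older form and the one with the most UMIs, the largest share of *Lrrc15*+ cells and the highest *Itga5* and *Itgb1*, so it is no separate check of these calls; the part of depth was not tested.

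The other 6 members tested did not pass in Tom+ *Thy1*+ fibroblasts. The log2 values were 0.22 (95% interval -0.20 to 0.64) for *Itgav*, -0.31 (-0.71 to 0.08) for *Itgb5* and -0.48 (-1.02 to 0.06) for *Itgb3*, of which the last 2 had groups that did not overlap. *Itga1* (-0.63 ± 0.44), *Itga10* (0.24 ± 0.58) and *Itga6* (-1.12 ± 0.76) rested on at most 34 UMIs in any library.

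In Tom-GFP+ *Thy1*+ fibroblasts *Itga5* was 36.4 CPM in the 1 steady-state mouse (99 UMIs, exact 95% Poisson interval 29.6 to 44.3) and 81.7 and 90.7 CPM in the injured mice. *Itga11* was 52.2 CPM before and 24.5 and 32.9 CPM after injury, and *Itgb1* 204 CPM before and 279 and 286 CPM after it. The lone steady-state library was taken to vary like the other groups, and no member passed the threshold (edgeR adjusted p = 0.155 for *Itga5*, 0.170 for *Itga11* and 0.373 for *Itgb1*), where 0.440% of all genes were higher and 0.920% lower. At an unadjusted p under 0.05 (edgeR) there were 2 of 9 members, *Itga5* (1.23 ± 0.43) and *Itga11* (-0.89 ± 0.32). Of all 12497 genes 2523 were under it too, so the members do not stand out by this count. The steady-state library of this lineage has the older form of gene list and both injured ones the newer, so form and injury cannot be told apart here.

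The test of the difference in injury effect between the lineages called no gene out of 12497 by edgeR, where 226 had an unadjusted p under 0.05, none of them a member. For *Itga5* the difference of the effects was 0.35 (95% interval -0.64 to 1.35), for *Itgb1* 0.30 (-0.34 to 0.94) and for *Itga11* 0.07 (-0.72 to 0.86). In injured *Thy1*+ fibroblasts no member passed the threshold between Tom+ and Tom-GFP+ cells (0.00800% of all genes called in either direction); *Itga10* came nearest, with 2.03, 4.44, 2.40 and 2.74 CPM against 0.721 and 1.25 CPM (1.68 ± 0.63, unadjusted p = 0.0256, edgeR adjusted p = 0.821). In that comparison 630 of 12497 genes had an unadjusted p under 0.05. That some of these libraries share a mouse was not modelled.

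In FLS the subunit that moved was *Itga6*. The 203 and 182 CPM of the steady-state Tom+ mice and the 83.3 to 121 CPM of the injured ones did not overlap, and the fall of -0.95 ± 0.21 passed the threshold (edgeR adjusted p = 0.0361; 1.16% of all genes were higher and 2.52% lower). The steady-state values rest on 21 and 37 cells with 65 and 101 *Itga6* UMIs. The call was lost under 8 of 18 alternatives, with values from -1.12 to -0.82. Without steady-state replicate 1 or 2 the adjusted p was 0.217 and 0.168, the call was also lost without Tom+ injured replicate 2 or 3 and without either Tom-GFP+ injured library, which share the estimate of spread, and with the form of the gene list as a block, where the injured side rests on Tom+ injured replicate 1, it was 0.137. On thinned cells of all FLS, *Itga6* was detected in 49.2% at steady state and 35.7% after injury. *Itga5* in FLS was 28.1 and 39.8 CPM before and 98.4, 63.5, 58.1 and 29.3 CPM after injury (0.87 ± 0.47, adjusted p = 0.332), and *Itgb1* differed by 0.27 (95% interval -0.02 to 0.57). *Itgb5* had groups that did not overlap, 222 and 190 CPM before and 118 to 171 CPM after injury, and missed the threshold (-0.46 ± 0.22, edgeR adjusted p = 0.284). The *Itgb1* groups did not overlap either, at 281 and 331 CPM before and 348 to 378 CPM after injury.

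In *Prg4*+ *Thy1*- cells none of the 5 members tested passed, with 1.04% of all genes higher and 2.95% lower by edgeR. *Itgb1* had an unadjusted p of 0.0196 (0.75 ± 0.27, edgeR adjusted p = 0.149), where 1106 of all 5194 genes tested had one under 0.05. It was 167 and 220 CPM in the steady-state Tom+ mice and 415, 376, 375 and 322 CPM in the injured ones. *Itga5*, at 35.7 and 39.97 CPM before and 151, 82.8, 64.9 and 72.6 CPM after injury, had groups that did not overlap (1.12 ± 0.58, adjusted p = 0.301). The *Itgb1* and *Itga11* groups did not overlap either. *Itga11* was 35.7 and 50.0 CPM before and 24.9 to 30.9 CPM after injury (-0.81, edgeR adjusted p = 0.262). The steady-state sums come from 17 and 24 cells, and *Itga5* rests there on 6 and 8 UMIs. With gates on thinned cells the values were 0.13 for *Itgb1*, 0.63 for *Itga5* and -0.33 for *Itga11*, and the part of depth was not tested.

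**Figure D4:**
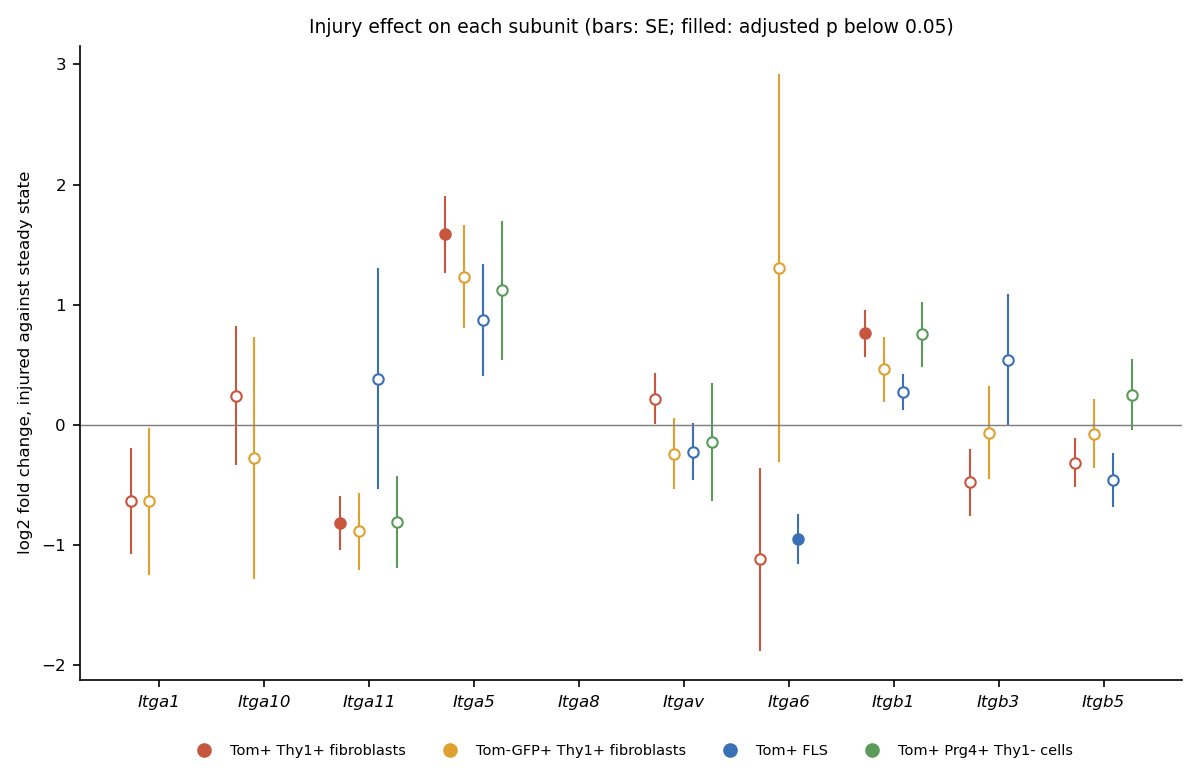
Log2 fold change of each member after injury (y axis; bars are 1 SE) in 4 comparisons (colours), filled where the edgeR adjusted p is below 0.05 and absent where the gene was not tested. *Itga5* lies above 0 in all 4 comparisons, from 0.87 to 1.58, and is filled in Tom+ *Thy1*+ fibroblasts; the Tom+ and Tom-GFP+ *Thy1*+ values come from 1 model.

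Lists of related genes were read beside the members. Of 16 other integrin subunits only 1 to 4 passed the filter in a comparison. *Itgb8*, which pairs with αv, was 3.80 ± 0.20 higher in FLS than in *Thy1*+ fibroblasts (edgeR adjusted p = 6.22e-09), *Itga9* was 1.08 ± 0.21 higher there (adjusted p = 0.00125), and *Itga7*, a laminin-binding chain of muscle, was 5.66 ± 0.50 higher in mural cells (adjusted p = 1.69e-06). *Itga2b* was lower in FLS, osteoblast-lineage, chondrocyte-lineage and mural cells. After injury *Itga2* fell in Tom+ *Thy1*+ fibroblasts (-1.83 ± 0.45, adjusted p = 0.0314) and *Itga7* in Tom+ FLS (-2.36 ± 0.50, adjusted p = 0.0312).

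Of 24 ligand genes, 9 of the 22 tested rose and 2 fell after injury in Tom+ *Thy1*+ fibroblasts, with a median of 0.45 against -0.03 for all genes, of which 5.05% rose and 7.59% fell. Those that rose included *Tnc* (5.81 ± 0.68), *Spp1* (5.38 ± 0.88), *Postn* (2.71 ± 0.28) and *Col1a1* (2.33 ± 0.24), which encode tenascin C, osteopontin, periostin and a chain of collagen type I. The others were *Thbs1*, *Emilin1*, *Col1a2*, *Col3a1* and *Lamb1*, while *Lamb2* (-1.74 ± 0.21) and *Fbln5* (-0.95 ± 0.23) fell (edgeR adjusted p between 0.00158 and 0.0464). Fibronectin itself (*Fn1*) was not among the genes called after injury. In Tom-GFP+ *Thy1*+ fibroblasts 4 of 22 rose (*Tnc*, *Postn*, *Col1a1* and *Col1a2*; 0.440% of all genes). In Tom+ FLS 3 of 21 rose (*Spp1*, *Col1a1*, *Col3a1*) and 2 fell (*Thbs1*, *Lamb2*), where 1.16% and 2.52% of all genes did, and in Tom+ *Prg4*+ *Thy1*- cells 2 of 20 rose (*Col1a1*, *Lamb1*) and 1 fell (*Lamb2*), where 1.04% and 2.95% did.

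Between classes, FLS had 6 of 22 ligand genes higher than *Thy1*+ fibroblasts (*Fn1*, *Fbln5*, *Tgfb1*, *Col4a1*, *Col4a2* and *Lama5*) and 11 lower, where 18.6% of all genes were higher and 18.8% lower. Among the laminin chains, the ligands of α6β1, *Lama5* was 3.64 ± 0.31 higher in FLS (adjusted p = 6.95e-07), and *Lama2* (-3.55 ± 0.23), *Lamc1* (-0.76 ± 0.11), *Lamb1* (-0.63 ± 0.09) and *Lama4* (-0.44 ± 0.13) were lower by the edgeR test. The collagen type I and III genes were lower too, *Col1a2* by -2.75 ± 0.13. In mural cells *Col4a1* (3.75 ± 0.53) and *Col4a2* (3.73 ± 0.38), which encode the ligand of α1β1, were among 6 of 23 that were higher, with 9 lower (6.27% and 8.59% of all genes). In chondrocyte-lineage cells 4 of 21 were higher, *Col2a1* (a gate marker and a ligand of α10β1), *Spp1*, *Thbs1* and *Tgfb1*, and 14 were lower (7.65% and 11.0% of all genes). The counts, with the shares of all genes in brackets, were 7 higher and 6 lower of 20 in osteoblast-lineage cells (4.88% and 5.59%), 5 and 3 of 21 in tenocyte-lineage cells (1.88% and 3.02%), 6 and 6 of 20 in F4 (8.27% and 8.37%), 3 and 4 of 21 in *Prg4*+ *Thy1*- cells (1.46% and 2.80%) and 5 and 6 of 20 in *Lrrc15*+ fibroblasts (6.63% and 6.68%).

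Of 18 cytoplasmic partners, all 18 were tested in Tom+ *Thy1*+ fibroblasts and 1 was called after injury, *Actn1* (α-actinin; 2.26 ± 0.55, edgeR adjusted p = 0.0306), with a list median of 0.27 against -0.03 for all genes. *Actn1* was also 0.81 ± 0.10 higher in *Lrrc15*+ than in other injured *Thy1*+ fibroblasts (edgeR adjusted p = 0.000715). In F4 fibroblasts the difference was -2.74 ± 0.21 (edgeR adjusted p = 1.16e-07), against *Thy1*+ fibroblasts that include the *Lrrc15*+ cells, whose part in it was not tested. None of the 18 was called after injury in Tom+ FLS or in Tom-GFP+ *Thy1*+ fibroblasts, where the list medians were -0.01 and 0.0044. In FLS against *Thy1*+ fibroblasts 6 of 18 were higher, led by *Tln2* (talin 2; 1.70 ± 0.13) and *Fermt2* (kindlin 2; 1.40 ± 0.07), and 3 lower (*Actn1*, *Zyx*, *Pxn*), the latter near the share of all genes (18.6% higher, 18.8% lower). In mural cells 7 of 18 were higher and none lower (6.27% and 8.59% of all genes), with a list median of 0.54 against -0.14 for all genes, among them *Flna* (1.86 ± 0.36) and *Vcl* (1.51 ± 0.32). In chondrocyte-lineage cells 2 were higher and 6 lower (7.65% and 11.0% of all genes).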

How the data were processed

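Cells were sequenced with a 10x Genomics 5' kit, and the authors deposited raw UMI counts per gene and cell, made with Cell Ranger on GRCm38.p6 per the labels; matrix headers of 5 libraries name version 3.0.2. A 5' UMI count has no length term. The cell filter asked for 500 genes and 1000 UMIs or more, with mitochondrial UMIs at 10% or less, and no doublet caller was run; 152 cells (3.17%) passed the gates of more than 1 class and went to the class with the largest share of its markers, ties left out. A gate asked for 3 to 5 markers, a number set after marker detection was seen and before integrin values were. Counts were summed per class and library (at least 10 cells) and tested with edgeR 4.0.16 (quasi-likelihood, TMM, filterByExpr, Benjamini-Hochberg over all genes tested, threshold 0.05) in R 4.3.3, without a block for groups and with the library as a block between classes; DESeq2 1.42.0 was an alternative. SE is the fold change divided by the root of F. The fits were run on simulated data with the same designs but the same spread for all genes, which checks the code and not the error rates in these data. Members, lists and markers were chosen with earlier results of these data known. All members were named, with list genes past the threshold and the 3 most alike genes each. Positions are from GENCODE on GRCm38. Poisson intervals and floors cover counting error only. The 95% intervals of log2 differences are built from the SE of the fit by a normal approximation, which is narrow for so few libraries.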

Additional observations from a re-analysis of the deposited data

Results flagged for a closer look

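In 75 groups of 4 to 9 values, 6 held a sample far from the rest of its group, where chance flags about 1 in 20. *Itgb5* in *Prg4*+ *Thy1*- cells was 98.7 CPM in Tom+ injured replicate 1 and 136 to 140 CPM in the other Tom+ injured libraries. The other 5 are log2 ratios of a class to the *Thy1*+ fibroblasts of the same library. In tenocyte-lineage cells of the Tom-GFP+ steady-state library the ratio was -2.89 for *Itga11* (0.014 to 1.24 elsewhere) and -2.37 for *Itga5* (-0.57 to 0.52 elsewhere), each on 1 UMI in 14 cells. *Itgb1* had a tenocyte ratio of 1.06 in Tom+ steady-state replicate 2 (-0.012 to 0.37 elsewhere). In chondrocyte-lineage cells *Itga5* was at -3.42 in Tom-GFP+ injured replicate 1, on 1 UMI (-0.49 to 0.13 elsewhere), and *Itgb1* at -1.44 in Tom+ injured replicate 1, on 14 UMIs (-0.71 to -0.29 elsewhere).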

How the results depend on the processing

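*Itga6*, *Itga11* and *Itgb5* in FLS, *Itgb3* in F4 fibroblasts, *Itga10* in osteoblast- and chondrocyte-lineage cells and *Itga1* in mural cells kept direction and call under every alternative run. *Itga5* turned to 0.26 in FLS within steady-state libraries and to -0.0070 in *Lrrc15*+ fibroblasts with 1 marker more. Numbers of members called moved as follows; the causes were not tested. Without the filter on low counts they were 2 for injury in Tom+ FLS (1 in the text), 1 for injury in *Prg4*+ *Thy1*- cells (0), 1 for injury in Tom-GFP+ *Thy1*+ fibroblasts (0), 1 for *Prg4*+ *Thy1*- cells (0), 2 for F4 (1) and 2 for tenocyte-lineage cells (1). With 1 marker more they were 1 for *Prg4*+ *Thy1*- cells, 1 for osteoblast-lineage cells (3) and 0 for *Lrrc15*+ fibroblasts (1), and with gates on thinned cells 2 for *Prg4*+ *Thy1*- cells. Tenocyte-lineage cells had 0 with the stricter cell filter, without cells of more than 1 gate, and within steady-state libraries. Chondrocyte-lineage cells (4) had 2 without cells of more than 1 gate, 2 within Tom+ and 2 within injured libraries, and 1 within steady-state libraries. Mural cells (3) had 4 without the filter, on thinned cells or with 1 marker more, and 2 with the stricter cell filter, without cells of more than 1 gate or with at least 20 cells. FLS (6) had 4 to 6 over all alternatives. With the form of the gene list as a block injury in Tom+ FLS had 0 and in Tom-GFP+ *Thy1*+ fibroblasts 1 (*Itga5*); that block is set by Tom+ injured replicate 1 alone, so neither value is a check of the other libraries.

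Leaving out 1 library at a time gave 0 to 3 members called for injury in Tom+ *Thy1*+ fibroblasts, 0 to 1 in Tom+ FLS, 0 to 1 in Tom-GFP+ *Thy1*+ fibroblasts (1 without Tom+ injured replicate 1), 1 to 2 for F4 fibroblasts (2 without Tom+ steady-state replicate 1), 0 to 1 for tenocyte-lineage cells (0 without Tom+ steady-state replicate 2, Tom+ injured replicate 2 or either Tom-GFP+ injured library) 2 to 3 for chondrocyte-lineage cells (3 without Tom+ steady-state replicate 2, 2 otherwise), 2 to 3 for mural cells (2 without Tom+ injured replicate 2 or 4), 2 to 4 for osteoblast-lineage cells and 4 to 6 for FLS (4 without Tom+ injured replicate 4).

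Same-numbered libraries deviated together with r of 0.064 and 0.13 (Tom+ steady state with injured) and 0.32 and 0.083 (Tom-GFP+ with Tom+ injured). Differently numbered libraries were not compared, so these values cannot decide whether the numbers mark a pairing. The numbers were not taken as a pairing in the main fits. With the replicate number as a block, injury in Tom+ FLS had 0 members called (*Itga6* -1.12, edgeR adjusted p = 0.0734) and 84 genes against 359; in Tom+ *Thy1*+ fibroblasts *Itga11* was lost (adjusted p = 0.0954) and *Itga5* and *Itgb1* stayed, with 1710 genes against 1580. No paired analysis was possible for the Tom-GFP+ injury effect because its steady-state library carries no number.

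Between alternatives the number of genes called after injury in Tom+ *Thy1*+ fibroblasts ran from 170 (without steady-state replicate 1) to 2870 (no filter), in Tom+ FLS from 35 to 1257 (359), in *Prg4*+ *Thy1*- cells from 2 to 831 (207), in Tom-GFP+ *Thy1*+ fibroblasts from 0 to 1682 (170), for the difference between lineages from 0 to 60 (0) and between injured lineages from 1 to 383 (2). Against *Thy1*+ fibroblasts it ran from 1587 to 4693 in FLS (3735), 57 to 1161 in *Prg4*+ *Thy1*- cells (382), 760 to 2050 in F4 (1370), 99 to 979 in tenocyte-lineage (463), 456 to 1773 in osteoblast-lineage (878), 809 to 2661 in chondrocyte-lineage (1668), 973 to 2042 in mural (1370) and 225 to 1802 in *Lrrc15*+ cells (1255), with the value of the text in brackets.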
